A study of Mus musculus with 3 samples.

Results

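B cell identity and receptor genes were followed in blood B cells of C57BL/6J mice by droplet single-cell RNA sequencing. The members were 9 genes chosen by symbol among the 31053 genes of the files: Ebf1, Pax5, Cd79a, Cd79b, Ms4a1, Vpreb3, Cr2, Tnfrsf13c and Cd22. The study held 3 libraries, each labelled 12 h: 1 of mice labelled as HDCA-treated with CLP (HDCA+CLP), 1 labelled as CMC-treated with CLP (CLP), and 1 labelled Sham. The labels do not expand their abbreviations. CLP was taken to mean caecal ligation and puncture, an abdominal sepsis model. HDCA was taken to mean the bile acid hyodeoxycholic acid, and CMC the carrier carboxymethylcellulose. The Sham label names neither agent, so in both comparisons with Sham the surgery and the agent cannot be told apart. The labels do not give the number of animals behind a library. With 1 library a group no test between groups was possible, and the intervals, at 95%, reflect counting error and nothing else.

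Ebf1 and Pax5 are transcription factors that set and keep the B cell programme. Cd79a and Cd79b encode the signalling pair of the B cell receptor, and the proteins of Ms4a1 (CD20), Cr2 (complement receptor CD21) and Cd22 (an inhibitory lectin) sit beside it in the membrane. Tnfrsf13c encodes the receptor through which the cytokine BAFF keeps mature B cells alive, and Vpreb3 encodes a protein of the pre-B cell receptor family found in immature and some mature B cells.

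B cells were cells with at least 3 UMIs (unique molecular identifiers, counts of single captured transcripts) of Cd79a, Cd79b and Ms4a1 together, under 5% of UMIs from the neutrophil genes S100a8 and S100a9, and fewer than 2 UMIs of Cd3d, Cd3e, Cd3g and Trac together. The gate held 273 of 10849 HDCA+CLP cells (2.52%, exact Clopper-Pearson interval 2.23 to 2.83), 282 of 9853 CLP cells (2.86%, 2.54 to 3.21) and 2638 of 6496 Sham cells (40.6%, 39.4 to 41.8). The share was thus far lower in both CLP libraries, also among cells that are not neutrophils, at 10.6% in HDCA+CLP, 5.26% in CLP and 42.1% in Sham. A share of captured cells can fall because other cells were added, and cell numbers per volume of blood were not measured. Median UMIs per B cell were 2710 in HDCA+CLP, 3278 in CLP and 4232 in Sham. The gate genes themselves were sparser in both CLP libraries, with a median of 9 gate UMIs per cell in each, against 27 in Sham. Exactly 3 gate UMIs were found in 16 HDCA+CLP, 27 CLP and 7 Sham cells, and 18, 40 and 5 further cells of the same libraries lay just outside with 2.

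A few deep cells inside the gate carried monocyte or plasmablast transcripts. At least 5 UMIs of 7 monocyte markers or at least 10 UMIs of the antibody joining chain gene Jchain were found in 3 HDCA+CLP, 12 CLP and 13 Sham cells. These cells held 9.98% of the B cell UMIs of HDCA+CLP, 24.5% of CLP and 1.40% of Sham. Levels are therefore given for all cells of the gate and again without these cells, a step chosen after seeing the data that left 270, 270 and 2625 cells. Of the cells left out, 2 in HDCA+CLP, 1 in CLP and 1 in Sham met the Jchain limit. Jchain is a plasmablast gene, and plasmablasts are of the B lineage. Neutrophil markers summed to 7766 CPM (UMIs per 1000000) in HDCA+CLP B cells and 5630 CPM in CLP B cells, against 128 CPM in Sham B cells, with all 10 markers detected in each library. Monocyte markers summed to 441, 1992 and 659 CPM in the same libraries, with 7, 8 and 8 of 8 detected, and without the deep cells to 309, 287 and 411 CPM. Erythroid markers summed to 944 CPM in HDCA+CLP and 8.55 CPM in Sham and were at 0 in CLP. T cell markers summed to between 146 and 247 CPM, with 3, 7 and 8 of 8 detected in HDCA+CLP, CLP and Sham. Markers of plasmacytoid dendritic cells summed to 322 CPM in HDCA+CLP (3 of 6 detected), 290 CPM in CLP (4 of 6) and 251 CPM in Sham (5 of 6), with the defining marker Siglech at 0 in HDCA+CLP and CLP. Without the deep cells neutrophil markers still summed to 8122 CPM in HDCA+CLP, 5141 CPM in CLP and 113 CPM in Sham. Erythroid markers in HDCA+CLP then summed to 1049 CPM. Values without the deep cells therefore do not address neutrophil or erythroid transcripts, whose part in the results below was not tested. The part of the other transcripts was not tested beyond those values.

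For Cd79a, Cd79b and Ms4a1 an excess in B cells over other cells follows from the gate. Each of the other 6 members was far higher in B cells than in T cells of the same library, except that Cr2 in CLP rests on 5 UMIs. T cells were cells with at least 3 UMIs of Cd3d, Cd3e, Cd3g and Trac together and fewer than 3 UMIs of the gate genes. The limit on S100a8 and S100a9 was the same as for B cells. Low levels of Cd79a, Cd79b and Ms4a1 in T cells thus follow in part from the T cell gate. In T cells of the same libraries no member exceeded 9.68 CPM (Cd79b in Sham). Ms4a1 was at 0 in T cells of HDCA+CLP and CLP at their own depth. It had 1 UMI in HDCA+CLP T cells gated after thinning to 2000 UMIs.

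Promoter sequence was at hand for 7 of the 9 genes, from RefSeq promoters on build GRCm38.p6, and the 250 bases before the start were searched on both strands for CCCNNGGG, a core of sites bound by EBF factors, and for the octamer ATTTGCAT bound by Oct factors. Of 32851 promoters 11.8% held the first and 1.60% the second in the same length. The EBF core was found upstream of Cd22 and the octamer upstream of Vpreb3, and neither motif was in the windows of the other 5 genes. The windows with a match are shown 5′ to 3′, motif in capitals. All 9 members, with a match or not, were lower in CLP than in Sham, and a link of the motifs to these levels was not tested. The match beginning 48 bases before the start of Cd22 lies in chr7:30879029-30879278 (minus strand), and that beginning 45 bases before Vpreb3 in chr10:75948050-75948299 (plus strand). A match describes the letters of the window and does not show that a factor binds there. Only these exact letters were searched, so a window without a match can still hold a site with other letters.
Cd22: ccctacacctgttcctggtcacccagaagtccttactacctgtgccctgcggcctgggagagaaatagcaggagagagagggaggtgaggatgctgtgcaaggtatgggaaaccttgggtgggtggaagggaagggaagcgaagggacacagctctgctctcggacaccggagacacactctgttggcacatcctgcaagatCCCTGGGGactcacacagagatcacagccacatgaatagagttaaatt
Vpreb3: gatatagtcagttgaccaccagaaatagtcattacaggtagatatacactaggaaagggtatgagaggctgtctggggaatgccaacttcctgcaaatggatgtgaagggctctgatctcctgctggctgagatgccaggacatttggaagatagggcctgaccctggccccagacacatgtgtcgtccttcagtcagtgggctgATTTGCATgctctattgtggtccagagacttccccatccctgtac

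In the CLP library all 9 members were at least 2-fold below Sham over all cells of the gate, and 6 of 9 without the deep cells. Cr2, Vpreb3 and Ms4a1 had the lowest ratios, and Ebf1, Cd79b and Cd22 the ratios nearest to 0. Of all 8961 genes with at least 50 UMIs over both pools, 12.4% were at least 2-fold lower, and 13.6% without the deep cells. The median log2 ratio of CLP over Sham was -1.61 over the members and -0.10 over all genes. In the HDCA+CLP library 5 of 9 members were at least 2-fold below Sham (Cd79a, Ms4a1, Vpreb3, Cr2 and Tnfrsf13c), where 10.4% of 8837 genes were, with medians of -1.06 over the members and -0.04 over all genes. Without the deep cells 4 members were past 2-fold there, against 11.3% of genes. In cells thinned to 2000 UMIs 4 members were at least 2-fold lower in HDCA+CLP, where 12.4% of genes were, and 5 in CLP, where 13.8% were. Both comparisons share the Sham library.

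**Figure D1:**
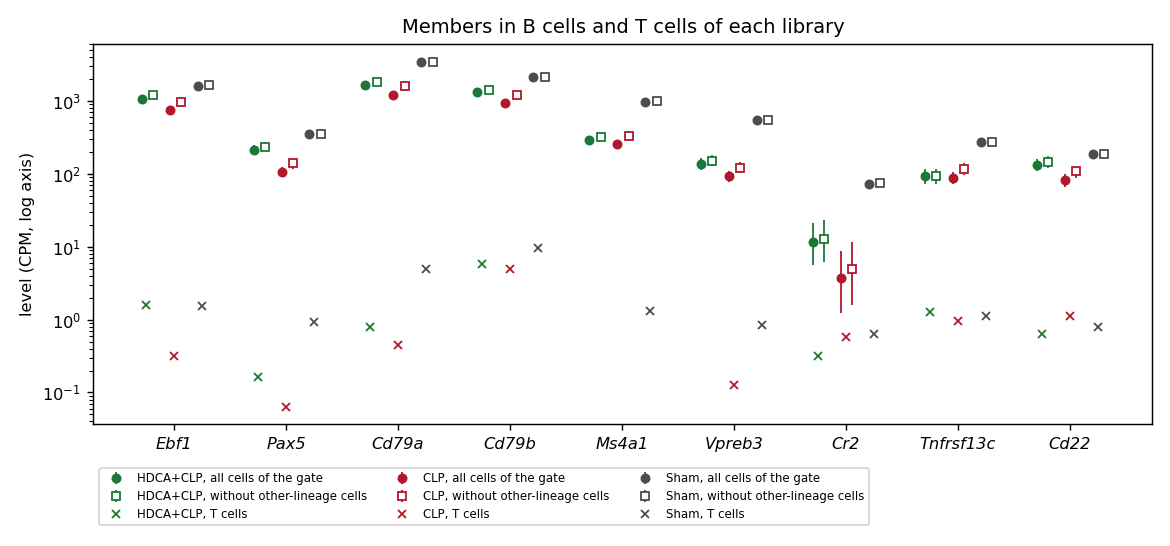
Level of each member (CPM, log axis) in the HDCA+CLP, CLP and Sham libraries, from left to right within each gene. Filled circles are all cells of the B cell gate, open squares leave out cells with monocyte or plasmablast transcripts, crosses are T cells (not drawn where at 0), and bars are exact Poisson 95% intervals. The Sham points are the highest for all 9 genes, and Cr2 stands lowest in CLP at 3.73 CPM.

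Among the transcription factors, Ebf1 stood at 1077 CPM in HDCA+CLP (exact Poisson interval 1009 to 1148), 743 CPM in CLP (697 to 791) and 1630 CPM in Sham (1607 to 1653). Over all cells of the gate the 3 libraries were thus ordered Sham, HDCA+CLP, CLP with intervals apart. The log2 ratio was -0.60 for HDCA+CLP over Sham and -1.13 for CLP over Sham. Without the deep cells Ebf1 was at 1193, 976 and 1649 CPM in the same libraries, and CLP over Sham became -0.76. Ebf1 was detected in most B cells everywhere. With each cell thinned to 2000 UMIs, 84.2% of HDCA+CLP, 85.0% of CLP and 93.5% of Sham B cells had a UMI of it. In those cells its log2 ratio of HDCA+CLP over CLP was 0.16 (-0.02 to 0.34), so both CLP libraries could not be told apart there.

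Pax5, which represses genes of other lineages, differed more between the 2 CLP libraries. It stood at 213 CPM in HDCA+CLP (184 to 246), 107 CPM in CLP (90.0 to 126) and 354 CPM in Sham (344 to 365), and the intervals did not overlap. The log2 ratio was -0.73 (-0.95 to -0.52) for HDCA+CLP over Sham and -1.73 (-1.98 to -1.49) for CLP over Sham, and without the deep cells -0.60 and -1.35. At 2000 UMIs a Pax5 transcript was found in 39.4% (32.9 to 46.1) of HDCA+CLP, 25.5% (19.8 to 31.7) of CLP and 48.1% of Sham B cells.

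Cd79a and Cd79b count toward the gate, so cells with little of them are less likely to be in it. Cd79a stood at 1653 CPM in HDCA+CLP, 1221 CPM in CLP and 3434 CPM in Sham, with log2 ratios of -1.06 for HDCA+CLP over Sham and -1.49 for CLP over Sham. Cd79b stood at 1332 CPM in HDCA+CLP, 936 CPM in CLP and 2109 CPM in Sham, with log2 ratios of -0.66 and -1.17 in the same comparisons. Without the deep cells Cd79a in CLP over Sham was at -1.11 and Cd79b at -0.83. When the gate used only the other 2 gate genes, at 2 or more UMIs, Cd79a was at -1.17 for HDCA+CLP over Sham and -1.86 for CLP over Sham, and Cd79b at -0.69 and -0.96. Deep cells were included with these gates. At the cells' own depth the order of the libraries, Sham above HDCA+CLP above CLP, was the same for both genes with either gate. At 2000 UMIs per cell Cd79a was at 1900 CPM in HDCA+CLP and 1941 CPM in CLP, so that order did not hold there for Cd79a.

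Ms4a1 (CD20), the third gate gene, stood at 292 CPM in HDCA+CLP (257 to 330), 254 CPM in CLP (228 to 282) and 983 CPM in Sham (966 to 1001). Sham was clearly highest, while the intervals of the 2 CLP libraries overlapped. The log2 ratio was -1.75 for HDCA+CLP over Sham and -1.95 for CLP over Sham, and -1.91 and -2.31 with a gate on Cd79a and Cd79b alone. That gate was applied with the deep cells included. Without the deep cells the gate of 3 genes gave -1.62 and -1.57. In cells at 2000 UMIs it was found in 34.8% of HDCA+CLP, 41.8% of CLP and 76.6% of Sham B cells.

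Vpreb3 stood at 137 CPM in HDCA+CLP (114 to 164), 92.6 CPM in CLP (77.0 to 110) and 546 CPM in Sham (533 to 559). Sham lay far above both, with log2 ratios of -1.99 for HDCA+CLP over Sham and -2.56 for CLP over Sham, and -1.86 and -2.18 without the deep cells. At 2000 UMIs it was detected in 22.6% of HDCA+CLP, 20.5% of CLP and 52.0% of Sham B cells.

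Cr2, which binds complement fragments and is high on marginal zone and follicular B cells, had 10 UMIs in HDCA+CLP, 5 UMIs in CLP and 881 UMIs in Sham B cells. These are 11.5 CPM (5.53 to 21.2), 3.73 CPM (1.21 to 8.71) and 73.2 CPM (68.4 to 78.2). The log2 ratio was -2.67 (-3.73 to -1.78) for HDCA+CLP over Sham and -4.29 (-5.92 to -3.06) for CLP over Sham, and no B cell of either CLP library held more than 1 Cr2 UMI. With a gate on B cell genes outside the members, CLP had 12 Cr2 UMIs (9.03 CPM) and CLP over Sham was at -3.02, while HDCA+CLP over Sham was at -2.54. At 2000 UMIs Cr2 was detected in 8 of 221 HDCA+CLP cells (3.62%), 3 of 220 CLP cells (1.36%) and 335 of 2572 Sham cells. The T cells of these libraries had a Cr2 UMI in 0.153%, 0.309% and 0.438% of cells at their own depth, with a median of 4083, 4764 and 6654 UMIs per cell.

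Tnfrsf13c (BAFF receptor) stood at 92.2 CPM in HDCA+CLP (73.1 to 115), 88.8 CPM in CLP (73.6 to 106) and 271 CPM in Sham (262 to 280). The 2 CLP libraries could not be told apart and both lay below Sham, with log2 ratios of -1.56 for HDCA+CLP over Sham and -1.61 for CLP over Sham. At 2000 UMIs it was detected in 14.5% of HDCA+CLP, 15.5% of CLP and 38.6% of Sham B cells.

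Cd22, which dampens B cell receptor signalling, stood at 131 CPM in HDCA+CLP (108 to 158), 81.4 CPM in CLP (66.8 to 98.2) and 187 CPM in Sham (179 to 195). The order of the libraries was again Sham, HDCA+CLP, CLP, and the log2 ratio was -0.51 (-0.79 to -0.23) for HDCA+CLP over Sham and -1.20 (-1.49 to -0.92) for CLP over Sham. Without the deep cells these were -0.37 and -0.81. At 2000 UMIs, 23.1% of HDCA+CLP, 17.3% of CLP and 31.0% of Sham B cells had a Cd22 UMI.

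**Figure D2:**
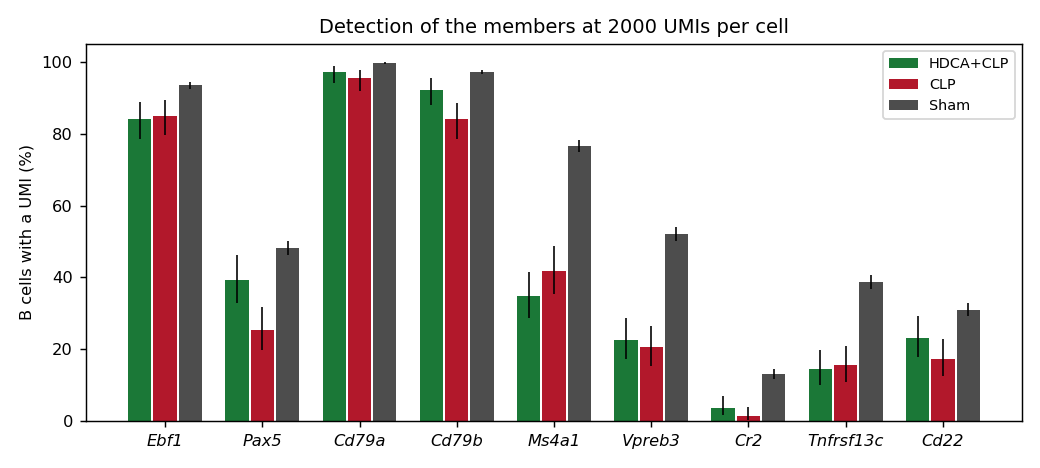
Share of B cells with at least 1 UMI of each member after thinning every cell to 2000 UMIs, for HDCA+CLP, CLP and Sham from left to right, with exact Clopper-Pearson 95% intervals. Pax5 was found in 39.4%, 25.5% and 48.1% of cells in this order, and Vpreb3 in 22.6%, 20.5% and 52.0%.

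HDCA+CLP was also set against CLP directly. Of the 8 members with at least 50 UMIs over both pools none was 2-fold lower, where 4.75% of 4759 genes were, and none was 2-fold higher, where 1.85% were. Pax5 came nearest to 2-fold and was past it under 4 of the alternative settings, the furthest a mitochondrial limit of 5%, where it was at 1.72. In that setting Vpreb3 was at 1.16, Ebf1 at 1.15 and Cd22 at 1.03, also past 2-fold. Over the cells used here Pax5 was at 213 CPM in HDCA+CLP and 107 CPM in CLP (log2 ratio 1.00, 0.68 to 1.32). It was at 0.75 (0.42 to 1.07) without the deep cells and at 0.75 (0.30 to 1.21) in cells at 2000 UMIs. Cd22 was at 0.69 (0.30 to 1.08), and at 0.44 (0.05 to 0.83) without the deep cells. Ebf1 was at 0.54, Vpreb3 at 0.57, Cd79b at 0.51 and Cd79a at 0.44, and without the deep cells at 0.29, 0.32, 0.26 and 0.18. In cells at 2000 UMIs Cd22 was at 0.61 (0.04 to 1.20), Ebf1 at 0.16 (-0.02 to 0.34) and Cd79b at 0.09 (-0.07 to 0.25). There Cd79a was at -0.03 and Vpreb3 at -0.06. That setting changes both the depth and the cells that pass the gate (221 in HDCA+CLP and 220 in CLP), and which of these turned the direction was not tested. Ms4a1 was at 0.20 (-0.04 to 0.44), at -0.05 without the deep cells and at -0.58 (-0.91 to -0.25) in cells at 2000 UMIs. Tnfrsf13c was at 0.05 (-0.37 to 0.47), and at -0.33 (-0.77 to 0.11) without the deep cells and -0.28 in cells at 2000 UMIs. Cr2, with 10 UMIs in HDCA+CLP and 5 UMIs in CLP, was too sparse to compare.

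**Figure D3:**
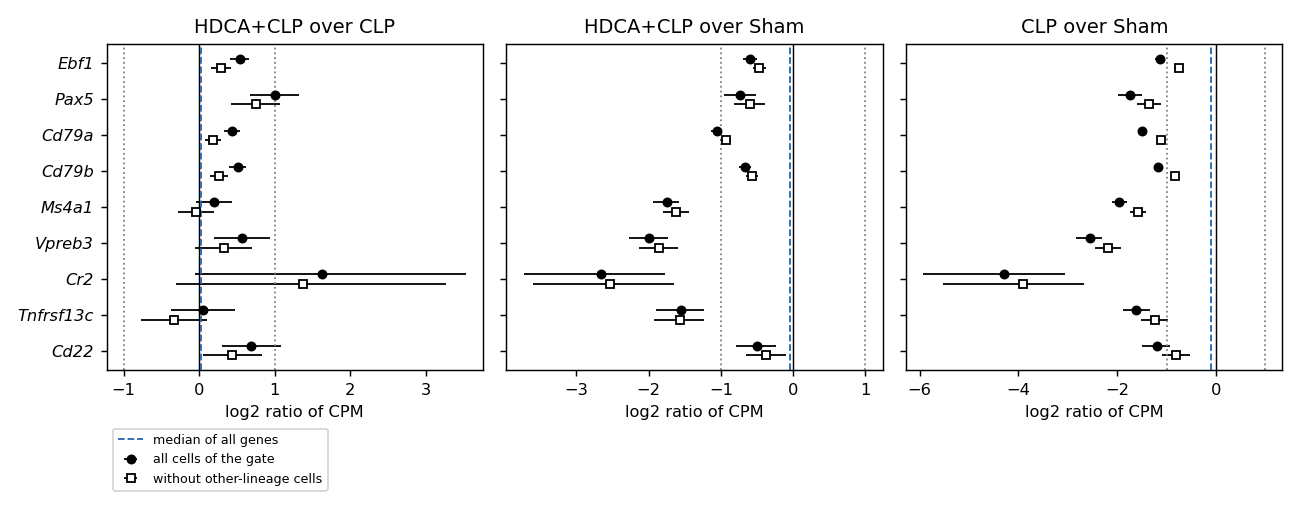
Log2 ratio of CPM of each member for HDCA+CLP over CLP, HDCA+CLP over Sham and CLP over Sham, with exact conditional 95% intervals. Filled circles are all cells of the gate, open squares leave out cells with monocyte or plasmablast transcripts, dotted lines mark a 2-fold difference and the dashed line the median of all genes. All points lie below 0 in both comparisons with Sham, with Cr2 lowest at -2.67 and -4.29, and Pax5 reaches 1.00 between the 2 CLP libraries.

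Fewer members were detected per B cell in both CLP libraries. Each of the 6 members outside the gate was also detected in fewer cells there, and joint detection beyond these single shares was not tested. Of the 6 members outside the gate, a cell at 2000 UMIs held a median of 2 in HDCA+CLP, 1 in CLP and 3 in Sham. Ebf1 and Pax5 were detected together in 34.4% of HDCA+CLP, 23.6% of CLP and 45.3% of Sham B cells. Neither was detected in 10.9%, 13.2% and 3.69% of cells of the same libraries. All 6 were detected together only in 13 Sham cells of 2572, in 0 of 221 HDCA+CLP cells and in 0 of 220 CLP cells. The exact upper bound of these counts of 0 is 1.66% in each. A member without a UMI at this depth can still be expressed.

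**Figure D4:**
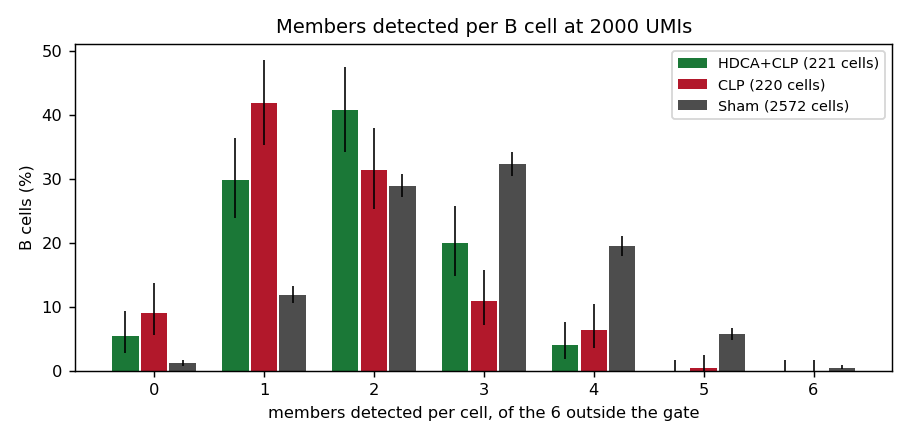
Share of B cells by the number of members detected, of the 6 outside the gate, at 2000 UMIs per cell in HDCA+CLP (221 cells), CLP (220 cells) and Sham (2572 cells), with exact 95% intervals. Cells with a single member were 29.9% of HDCA+CLP, 41.8% of CLP and 11.9% of Sham B cells.

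Fcer2a (CD23), a marker of follicular B cells, was far lower in both CLP libraries, at 12.7 CPM in HDCA+CLP, 10.5 CPM in CLP and 295 CPM in Sham. At 2000 UMIs no Fcer2a UMI was found in 96.8% of HDCA+CLP, 97.7% of CLP and 58.9% of Sham B cells. A cell without a UMI at this depth can still express Fcer2a, so the split does not separate B cell subsets. Neither the likeness of both Sham groups nor a comparison of cells without a UMI holds the subset constant. In Sham cells at 2000 UMIs the shares of the 6 members outside the gate lay within 5 percentage points between cells with and without an Fcer2a UMI. Vpreb3 was detected in 49.3% of Fcer2a-positive and 53.8% of Fcer2a-negative cells, and Pax5 in 48.1% and 48.0%. Among cells without an Fcer2a UMI, Vpreb3 was detected in 22.4% of HDCA+CLP and 20.5% of CLP cells, against 53.8% of Sham cells. Tnfrsf13c was detected in 15.0% of HDCA+CLP and 14.9% of CLP cells without Fcer2a, against 39.0% of such Sham cells.

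B cells were also split by activation, as cells with at least 3 UMIs of Irf4, Egr2, Fabp5 and Bcl2a1d together (activation-high) or fewer (activation-low). Activation-high cells numbered 4 in HDCA+CLP (1.47% of B cells, 0.40 to 3.71), 24 in CLP (8.51%, 5.53 to 12.4) and 24 in Sham (0.91%, 0.58 to 1.35). They were deeper cells, with a median of 18630 UMIs in HDCA+CLP, 9126 in CLP and 7912 in Sham, against 2700, 3158 and 4224 in activation-low cells, and a sum of UMIs passes a fixed threshold more easily in a deep cell. At 2000 UMIs per cell 0 HDCA+CLP, 1 CLP and 3 Sham cells passed. Of the genes of the split, Fabp5 had 15 UMIs in the activation-high cells of HDCA+CLP, 115 in CLP and 11 in Sham, and Irf4 had 9, 33 and 83 UMIs. Bcl2a1d had 2, 92 and 29 UMIs and Egr2 0, 1 and 0, so different genes led the sum in CLP and Sham. Monocyte markers summed to 3665 CPM in activation-high and 1329 CPM in activation-low cells of CLP, and to 1293 and 647 CPM in Sham. Cells with monocyte or plasmablast transcripts made up 3 of the 4 activation-high cells of HDCA+CLP, 9 of the 24 of CLP and 2 of the 24 of Sham.

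In CLP, 7 of the 8 measured members were at least 2-fold lower in activation-high than in activation-low B cells, where 16.5% of 3311 genes were. Without the cells with monocyte or plasmablast transcripts 5 of 8 were, where 23.6% were, and 1 was at least 2-fold higher, where 15.9% were. In the 15 activation-high cells left, 12 B cell markers, members among them, summed to 3619 CPM. They summed to 9423 CPM in the activation-low CLP cells left and 14003 CPM in the activation-high Sham cells left. Neutrophil markers summed to 2686 CPM in these 15 cells and 5458 CPM in the activation-low cells. A deep cell reaches 3 gate UMIs at a lower CPM, and the part of this was not tested. Cd79a stood at 111 CPM in activation-high and 1661 CPM in activation-low cells (log2 ratio -3.91). Without the cells with monocyte or plasmablast transcripts it stood at 337 and 1774 CPM (-2.40). Ebf1 stood at 108 CPM in activation-high and 994 CPM in activation-low cells (-3.20, and -1.90 without the cells with monocyte or plasmablast transcripts). Pax5 stood at 42.1 CPM in activation-high and 132 CPM in activation-low cells (-1.65). Without the cells with monocyte or plasmablast transcripts it stood at 130 and 142 CPM (-0.13, -1.01 to 0.64). Tnfrsf13c went the other way without them, with 27 UMIs (233 CPM) in activation-high and 90 UMIs in activation-low cells (1.21, 0.54 to 1.85), against -0.30 over all cells. Cd22 had 4 UMIs and Cr2 0 UMIs in activation-high CLP cells, and a Cr2 level there was not detectable at this depth.

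Among Sham B cells 2 of 9 members were past 2-fold between both sides of the split, where 9.18% of 8705 genes were at least 2-fold lower, and these were Ebf1 and Vpreb3. Ebf1 stood at 613 CPM in activation-high and 1650 CPM in activation-low cells (-1.43, -1.68 to -1.19) and Vpreb3 at 153 and 553 CPM (-1.85, -2.37 to -1.37). Pax5 stood at 294 CPM in activation-high and 355 CPM in activation-low Sham cells (-0.28, -0.65 to 0.07). In HDCA+CLP the 4 activation-high cells gave 7 of 8 members at least 2-fold lower, where 32.9% of 2268 genes were. With 3 of the 4 cells carrying monocyte or plasmablast transcripts, no member is described there.

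**Figure D5:**
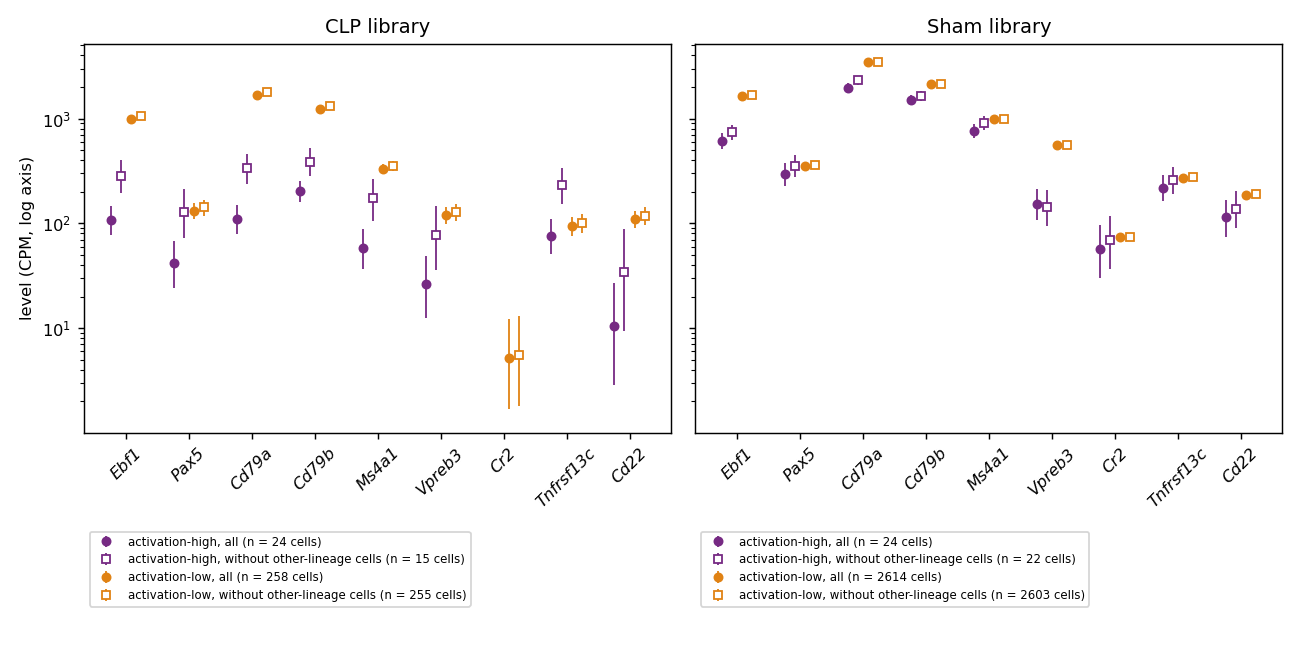
Level of each member (CPM, log axis) in activation-high (purple) and activation-low (orange) B cells of the CLP and Sham libraries, over all cells (filled circles) and without cells holding monocyte or plasmablast transcripts (open squares), with exact Poisson 95% intervals and genes at 0 not drawn. In CLP the activation-high level of Ebf1 is 108 CPM over all 24 cells and 285 CPM over the 15 cells left, below the activation-low levels in either case.

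Lower member levels were also seen with activation-high cells set aside. In activation-low cells alone, 6 of 9 members were at least 2-fold lower in CLP than in Sham, where 13.1% of 8802 genes were, and 4 of 9 were lower in HDCA+CLP, where 11.4% of 8773 genes were. Vpreb3 was at -2.22 and Cr2 at -3.82 in activation-low cells of CLP over Sham.

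Other genes of the pathway were counted from 9 lists, which include the members. The counts of genes at least 2-fold lower than Sham stand against 10.4% of all genes in HDCA+CLP and 12.4% in CLP. Among survival, cytokine and complement receptors, 9 of 11 genes were at least 2-fold lower in HDCA+CLP than in Sham and 8 of 11 in CLP, and 7 of 11 in each without the deep cells. With the members set aside they were 7 of 9 in HDCA+CLP and 6 of 9 in CLP over all cells of the gate, and 5 in each without the deep cells. Cd55, which limits complement on the cell surface, stood at 134 CPM in HDCA+CLP, 75.4 CPM in CLP and 485 CPM in Sham, and the interleukin-4 receptor gene Il4ra at 63.4, 75.4 and 74.8 CPM. Of 16 transcription factors 3 were lower in HDCA+CLP and 7 in CLP, and none was 2-fold higher in either. These became 3 and 5 without the deep cells. With the members set aside they were 3 of 14 and 5 of 14 over all cells of the gate, and 3 and 4 without the deep cells. Bcl11a stood at 108 CPM in HDCA+CLP, 73.2 CPM in CLP and 291 CPM in Sham, while Irf8 stood at 346, 361 and 304 CPM.

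Of 18 genes of B cell receptor signalling 6 were at least 2-fold lower in HDCA+CLP and 8 in CLP than in Sham. These became 5 in HDCA+CLP and 6 in CLP without the deep cells. With the members set aside they were 5 of 16 and 6 of 16 over all cells of the gate, and 5 in each without the deep cells. Bank1, a B cell scaffold protein of that signalling, stood at 273 CPM in HDCA+CLP, 172 CPM in CLP and 533 CPM in Sham. Of 10 measured inhibitors of that signalling 5 were lower in each, but without the deep cells 4 in HDCA+CLP and 2 in CLP. With the members set aside they were 5 of 9 and 4 of 9 over all cells of the gate, and 4 and 2 without the deep cells. Fcgr2b, the inhibitory receptor for antibody, was at 130 CPM in HDCA+CLP and 122 CPM in CLP against 64.7 CPM in Sham. Ptpn6, a phosphatase recruited by Cd22, stood at 85.3 CPM in HDCA+CLP, 117 CPM in CLP and 393 CPM in Sham. Of 10 homing receptors, none of them a member, 3 were lower in HDCA+CLP and 6 in CLP, and 3 and 4 without the deep cells. Cxcr4 stood at 81.8 CPM in HDCA+CLP, 62.0 CPM in CLP and 179 CPM in Sham.

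Of 8 measured marginal zone and B-1 genes 3 were lower in HDCA+CLP and 5 in CLP, Cr2 among them, and 4 and 5 without the deep cells. With Cr2 set aside they were 2 of 7 and 4 of 7 over all cells of the gate, and 3 and 4 without the deep cells. Of 6 measured genes of immature B cells, 2 were at least 2-fold lower and 2 higher in HDCA+CLP, and 1 lower (Vpreb3) and 2 higher in CLP. When the deep cells were left out, 1 was higher in each, and 2 were lower in HDCA+CLP and 1 in CLP. The cytokine receptor gene Il7r was at 142 CPM in HDCA+CLP and 63.5 CPM in CLP against 11.1 CPM in Sham, opposite in direction to Vpreb3 of the same list. Il7r is also a T cell gene. The gate itself limits Cd3d, Cd3e, Cd3g and Trac, and T cell markers had 136 UMIs in HDCA+CLP, 195 UMIs in CLP (Cd3e at 0) and 2979 UMIs in Sham B cells. Their part in the Il7r level was not tested. Of 6 measured plasmablast genes 2 were at least 2-fold higher in HDCA+CLP and 3 in CLP than in Sham, and 0 of 5 in each without the deep cells, whose removal uses Jchain.

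Of 14 measured activation genes 4 were at least 2-fold higher and 1 lower in HDCA+CLP than in Sham, and of 16 in CLP 8 were higher and none lower. Without the deep cells 4 of 13 were higher and 2 lower in HDCA+CLP, and 8 of 14 higher and none lower in CLP. Of all genes 5% were at least 2-fold higher in HDCA+CLP than in Sham and 7.32% in CLP, and without the deep cells 4.44% and 3.88%. Fabp5, a fatty acid binding protein, stood at 19.6 CPM in HDCA+CLP, 94.8 CPM in CLP and 3.07 CPM in Sham, and the chemokine gene Ccl4 had 1, 216 and 2 UMIs. Between HDCA+CLP and CLP none of 16 transcription factors, 15 signalling genes, 9 inhibitors, 8 survival receptors and 9 homing receptors was past 2-fold. Of all genes 4.75% were at least 2-fold lower and 1.85% at least 2-fold higher in HDCA+CLP than in CLP. At least 2-fold higher in HDCA+CLP than in CLP were 3 of 5 plasmablast genes and 1 of 3 marginal zone and B-1 genes. So was 1 of 5 genes of immature B cells. Without the deep cells the counts of these lists were 0 of 2, 0 of 2 and 0 of 4, where 1.27% of all genes were. Of 13 activation genes 7 were at least 2-fold lower in HDCA+CLP than in CLP, and 4 of 8 without the deep cells, where 1.39% of all genes were.

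The 5 genes whose levels over the 6 pools (library by activation split) were most like the mean of the 6 members outside the gate were Aff3, Gimap8, Bend5, Cnn3 and Ly6d, of 8705 candidates and with the members left out of the ranking. Pax5 would have rank 3 among all candidates, at 0.20. The root mean square distances of the 5 genes were 0.18, 0.20, 0.22, 0.23 and 0.23 on the log2 scale, with 5 CPM added to each level. Aff3 stood at 32.3 CPM in HDCA+CLP, 20.9 CPM in CLP and 76.2 CPM in Sham, and Ly6d, a surface marker of the B lineage, at 724, 758 and 2032 CPM. Candidates had at least 50 UMIs in Sham B cells, the library where the members were highest. In activation-high cells Aff3, Gimap8, Bend5 and Cnn3 had 0 UMIs each in HDCA+CLP, and 1, 2, 2 and 1 UMIs in CLP. Their place in these 2 pools is therefore largely set by the 5 CPM added. The pools share libraries, and 1 of them rests on 4 cells.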

How the data were processed

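Blood cells of 3 mouse libraries (10x Chromium 3′ v3, per the labels' protocols) were analysed from the deposited UMI counts per gene and barcode, made with Cell Ranger 5.0.1 per the file headers. Seurat 4.0.6, R 4.0.3 and build mm39 are named in the submitters' processing notes. The authors' files held 12205 (HDCA+CLP), 11387 (CLP) and 7159 (Sham) barcodes with 95178381, 87031721 and 42427093 UMIs, and 34, 17 and 26 barcodes were shared by HDCA+CLP with CLP, HDCA+CLP with Sham and CLP with Sham. Cells were kept with at least 500 UMIs, 200 genes and at most 10% mitochondrial UMIs, and called doublets (1174, 987 and 395) were left out by scoring against 2 simulated doublets per cell, at 0.8% per 1000 barcodes.

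UMIs were summed over B cells of a library and scaled to 1000000 (CPM). Poisson and Clopper-Pearson intervals and the conditional binomial interval of ratios are exact. They were tested only on simulated Poisson counts, the model they assume. That simulation held no variation between cells, so it cannot show how the intervals hold under such variation. A gene was measured with at least 50 UMIs over both pools, and called with a 2-fold difference. A pool at 0 was set to a floor of 3 counts. For detection shares each cell was thinned to 2000 UMIs before the gate, which left out 33 HDCA+CLP, 16 CLP and 60 Sham B cells as shallower. The gate then held 221 HDCA+CLP, 220 CLP and 2572 Sham cells, against 273, 282 and 2638 before thinning. Cells with few gate UMIs are less likely to pass after thinning. Named genes were all members, the 3 highest and 3 lowest of each list by the interval bound nearest 0, from which examples were drawn, and the 5 most like genes. Fcgr2b and Il7r are among these, and the Fcer2a split was chosen after its values were seen. The members and lists were chosen with earlier results of these data known. Python 3.11.15, NumPy 2.4.6, SciPy 1.17.1, pandas 2.3.3 and matplotlib 3.10.9 were used.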

Additional observations from a re-analysis of the deposited data

How the results depend on the processing

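All 111 member ratios of HDCA+CLP over Sham and all 111 of CLP over Sham under the alternatives tried stayed below 0, at -2.87 to -0.33 and -4.57 to -0.58. With cells thinned to 2000 UMIs, 5 members rather than 9 were at least 2-fold lower in CLP than in Sham. In that setting, which also changes the cells in the gate, HDCA+CLP over CLP turned to -0.0304 for Cd79a, -0.0631 for Vpreb3, -0.58 for Ms4a1 (0.20 over the cells reported) and -0.28 for Tnfrsf13c (0.05), and the cause was not tested. With a mitochondrial limit of 5% Pax5, Vpreb3, Ebf1 and Cd22 were past 2-fold higher in HDCA+CLP than in CLP, at 1.72, 1.16, 1.15 and 1.03. The B cell share of HDCA+CLP was 2.09% at 2000 UMIs, 2.18% with a gate of 5 UMIs and 1.91% with a mitochondrial limit of 5%. The share of CLP was 2.32%, 2.40% and 1.22% under the same settings and 3.27% with a gate of 2 UMIs. The Sham share was 30.7% with a mitochondrial limit of 5%. Splits that left fewer than 4 activation-high cells were left without a value, a minimum chosen after seeing the data. Cr2 rests on 10, 5 and 881 UMIs in HDCA+CLP, CLP and Sham. No paired analysis was possible because each group has 1 library.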
